A study of Mus musculus with 8 samples.

Results

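The secreted factors of senescent cells were examined as a set of 34 genes, which includes a pair of surface receptors that can also be shed, Plaur and Tnfrsf1a. They were chosen by symbol and each matched 1 identifier among the 54418 of the deposited count table. Of the 34 genes, 33 had a count in at least 1 library and 26 passed the filter on low counts, among 16011 genes that did. Senescent cells stop dividing but remain active, and many of them secrete a mixture of cytokines, chemokines, growth factors, insulin-like growth factor (IGF) binding proteins and proteases that act on their neighbours and on the immune system. Transcription of much of this mixture is driven by NF-kappaB and C/EBP factors, and interleukin 1 and interleukin 6 keep it going through their own receptors. In many cell types p16 and p19, the products of the locus that Bmi1 keeps silent, accompany the senescent state.

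The libraries came from melanocyte stem cells, the pigment cell precursors of the hair follicle, sorted as live, non-autofluorescent GFP-positive cells from the back skin of mice at postnatal day 21. There were 4 Bmi1-deleted libraries (Bmi1 fl/fl with Tyrosinase-Cre and with the reporter pair Dct-rtTA and TRE-H2B-GFP) and 4 control libraries (Bmi1 fl/fl with the same reporter pair and without Cre). All mice were of a mixed C57Bl-6;129Sv background, carried floxed Bmi1 and the doxycycline-dependent GFP reporter, which the promoter of the melanocytic gene Dct controls, and ate doxycycline pellets. Cre was under a Tyrosinase promoter, so deletion was directed to pigment lineage cells, and no label says that replicates came from separate animals, so p-values speak only of the spread among these libraries, which may be technical.

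Libraries held 8882656 to 10368174 counts. Bmi1 itself had 627, 713, 626 and 607 counts in Bmi1-deleted libraries 1 to 4, against 796, 743, 705 and 859 in control libraries 1 to 4. The groups did not overlap, but the difference in Bmi1 did not pass (edgeR adjusted p = 0.607), and counts over the whole gene take in exons that a deletion may leave. Cdkn2a, which encodes p16 and p19, had 85, 50, 38 and 46 counts in the Bmi1-deleted libraries and 0 in every control library, and it rose (edgeR adjusted p = 0.00736). Markers of melanocytes were all detected, and their summed level was 5147 to 10905 CPM (counts scaled to a common library size and composition) in Bmi1-deleted and 9440 to 15702 CPM in control libraries. All 15 had a log2 change below 0 (median −0.77), but 0 passed without a block. Groups were apart and lower for 3, against 2.39% of all tested genes, and 12 were lower in all 4 same-numbered pairs, against 9.59%. With the replicate number as a block 10 fell, against 0.706% of all tested genes. Of 20 fibroblast markers, none was at 0, and 16 of the 17 tested had a log2 change above 0 (median 0.96). Without a block 0 fibroblast markers passed, and with the replicate number as a block 7 rose, against 1.71% of all tested genes. Their summed level was 18596, 15382, 10940 and 8505 CPM in Bmi1-deleted libraries 1 to 4, against 8779, 7110, 5749 and 5152 CPM in control libraries 1 to 4 (exact two-sided permutation p = 0.0571). Collagen genes made up most of this sum, with Col3a1 at a mean of 5349 CPM in Bmi1-deleted and 2748 CPM in control libraries, while Dcn was at 65.1, 56.9, 15.7 and 1.47 CPM in Bmi1-deleted libraries 1 to 4, against 4.98 to 12.96 CPM in control libraries. Bmi1-deleted library 4 was thus below every control for Dcn. Schwann cell markers, 12 in number and all detected, summed to 5362 to 7169 CPM in Bmi1-deleted and 3112 to 5343 CPM in control libraries. The groups did not overlap, but Bmi1-deleted 4 and control 1 were close, at 5362 and 5343 CPM. Without a block 0 Schwann cell markers passed, and with the replicate number as a block 8 rose, against 1.71% of all tested genes. In bulk samples, fewer cells of a type and less RNA per cell cannot be told apart.

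The sequences before the start sites were compared because NF-kappaB, AP-1 and C/EBP motifs are known from promoters of several of these genes. RefSeq start-site tables on GRCm38.p6 held 29 of the 34 genes, and the 250 bases before the start were searched on both strands. The NF-kappaB consensus occurred in 8 of the 29 (27.6%), against 3.75% of all 27018 promoters in the table. Those 8 were Il6, Cxcl1, Cxcl2, Cxcl10, Ccl20, Csf1, Vegfa and Igfbp5. The AP-1 motif TGANTCA occurred in 7 of 29 (24.1%), against 6.87% of all promoters, and the C/EBP motif TTNNGNAA in 11 of 29 (37.9%), against 36.9% of all promoters. A ratio of observed to expected CpG of at least 0.6, a mark of the CpG-rich promoters on which Polycomb complexes can gather, was found in 7 of 29 (24.1%), against 34.5% of all promoters. Of those 7, 5 were IGF binding protein genes, and the others were Areg and Serpine2. A match is a description of letters and not a bound site.

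The 250 bases before the RefSeq start are shown for the 5 genes with an entry whose unadjusted edgeR p was under 0.05 or that passed with the replicate number as a block, so they were chosen after their values were seen. Capitals mark matches to the NF-kappaB, AP-1 or C/EBP motifs, and each sequence runs 5′ to 3′ on the strand of its gene, on GRCm38.p6.
Cxcl1, chr5:90890995-90891244, plus strand: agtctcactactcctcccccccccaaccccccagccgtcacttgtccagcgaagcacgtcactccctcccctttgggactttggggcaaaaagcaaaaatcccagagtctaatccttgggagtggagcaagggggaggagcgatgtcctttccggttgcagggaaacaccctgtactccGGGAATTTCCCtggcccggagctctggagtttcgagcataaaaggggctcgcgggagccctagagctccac
Cxcl10, chr5:92348890-92349139, minus strand: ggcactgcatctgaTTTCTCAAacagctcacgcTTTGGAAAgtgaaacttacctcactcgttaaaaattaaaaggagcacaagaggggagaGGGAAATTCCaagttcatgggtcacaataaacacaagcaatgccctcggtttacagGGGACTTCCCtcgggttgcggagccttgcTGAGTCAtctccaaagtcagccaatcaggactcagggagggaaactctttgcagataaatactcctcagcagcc
Plaur, chr7:24462233-24462482, plus strand: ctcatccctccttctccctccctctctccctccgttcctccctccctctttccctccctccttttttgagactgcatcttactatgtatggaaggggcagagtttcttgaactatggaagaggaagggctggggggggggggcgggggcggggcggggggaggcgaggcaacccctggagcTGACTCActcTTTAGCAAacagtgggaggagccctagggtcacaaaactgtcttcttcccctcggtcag
Serpinf1, chr11:75422624-75422873, minus strand: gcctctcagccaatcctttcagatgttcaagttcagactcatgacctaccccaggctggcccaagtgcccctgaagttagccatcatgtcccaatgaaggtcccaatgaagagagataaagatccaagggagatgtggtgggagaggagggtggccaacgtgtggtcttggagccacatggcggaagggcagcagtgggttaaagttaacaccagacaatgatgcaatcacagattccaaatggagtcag
Serpine2, chr1:79858666-79858915, minus strand: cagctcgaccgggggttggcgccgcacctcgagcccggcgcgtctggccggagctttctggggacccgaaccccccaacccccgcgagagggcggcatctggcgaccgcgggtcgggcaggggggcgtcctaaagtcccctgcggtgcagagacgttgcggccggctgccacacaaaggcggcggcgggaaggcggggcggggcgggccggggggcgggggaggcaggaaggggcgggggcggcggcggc
Cxcl1 carried 2 overlapping matches to the NF-kappaB consensus, whose first bases lay 71 and 70 bases before the start. Cxcl10 carried 2 separate ones, 159 and 103 bases before the start, with an AP-1 match 74 bases and C/EBP matches 236 and 217 bases before it. In Plaur an AP-1 match lay 69 bases and a C/EBP match 59 bases before the start. Neither serpin gene held any of the 3 motifs in this window. The pair differed in composition, with a CpG ratio of 0.912 and 78.8% G and C for Serpine2 and a CpG ratio of 0.121 and 51.6% G and C for Serpinf1.

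None of the 26 tested factors rose or fell by the edgeR quasi-likelihood test at an adjusted p under 0.05. Across all 16011 genes 0.0874% rose and 0.00625% fell by that test. At an unadjusted p under 0.05, 5 of the 26 tested factors were higher and 0 lower in Bmi1-deleted libraries, while 4.82% of all tested genes were higher and 3.45% lower at that p. The 5 were Serpinf1, Cxcl10, Ccl2, Plaur and Cxcl1. DESeq2, run as another tool, called 1 factor, Serpinf1 (adjusted p = 0.0454), where 0.766% of the 14761 genes with an adjusted p rose, and limma on the deposited TPM called 0. Without the filter on low counts edgeR called 3, Cxcl10 (adjusted p = 0.0229), Serpine2 (0.0313) and Serpinf1 (0.0358), and 0.741% of 34973 genes rose. With the replicate number as a block, 2 factors rose, both of them serpins, and 0 fell, while 1.71% of all tested genes rose and 0.706% fell in that fit. Groups did not overlap for 3 factors, all higher in Bmi1-deleted libraries (Ccl2, Serpinf1 and Plaur). In TPM the groups of these 3 factors overlapped. Across all tested genes, 2.79% had groups apart and higher and 2.39% apart and lower.

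Most tested factors had a fitted log2 change above 0. This held for 24 of 26, with a median of 0.50, against 50.7% of all tested genes and a median of 0.01. The exceptions were Igfbp2 and Mmp12. All 4 same-numbered pairs were higher in Bmi1-deleted libraries for 8 factors and lower for 0, against 10.999% and 9.59% of all tested genes. No label pairs libraries by number, and libraries 1 and 2, and 3 and 4, also correlated across numbers. The genes and their roles were picked with earlier results of these data known, and the count filter can keep a gene through 1 group alone, so these counts describe the tested factors and do not cover the 8 left out. Fibroblast markers differed between the same libraries. Once their mean log2 level per library entered the fit as a covariate, the median of the tested factors was −0.24, with 0 factors called. Summed levels of these markers were 8505 to 18596 CPM in Bmi1-deleted and 5152 to 8779 CPM in control libraries. The fit therefore cannot fully tell marker level and genotype apart.

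**Figure D1:**
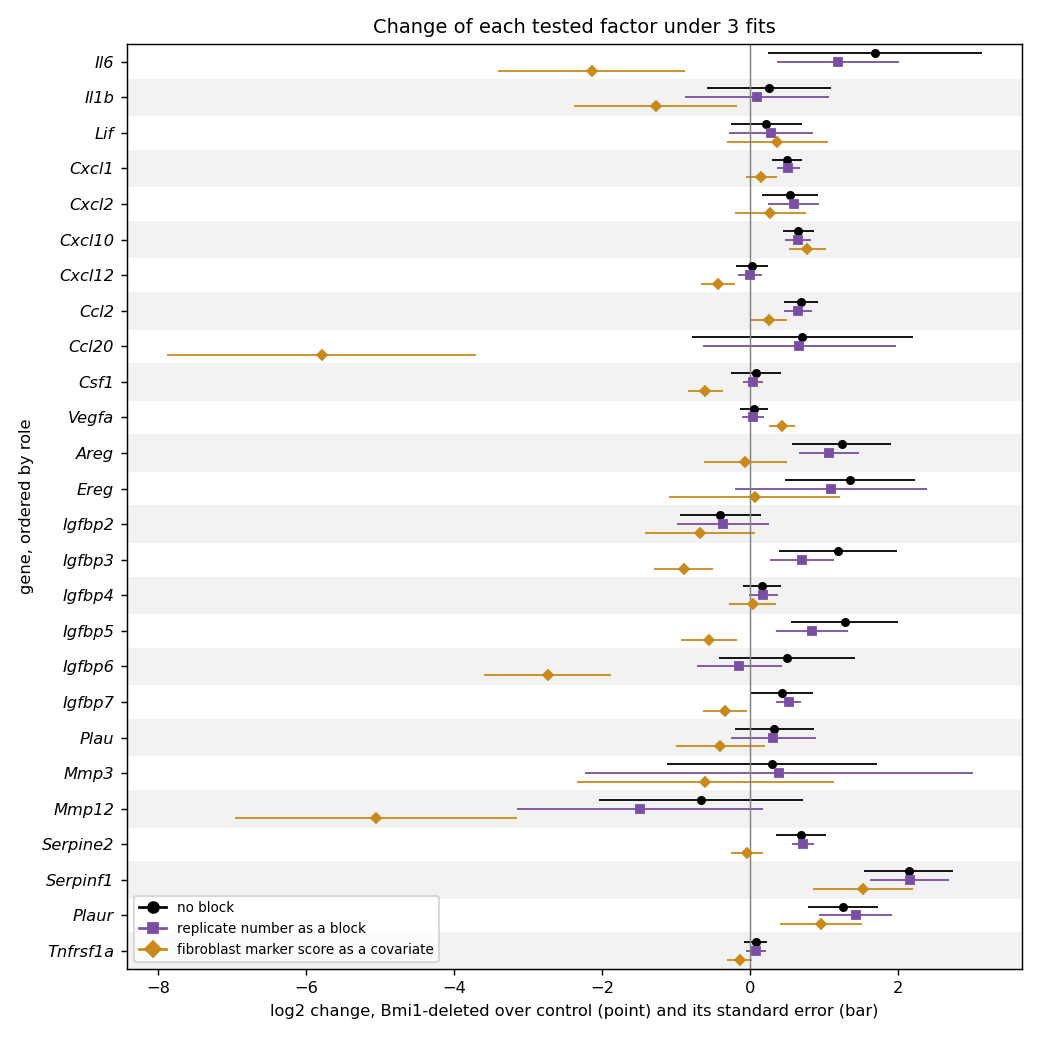
Fitted log2 change of each of the 26 tested factors, Bmi1-deleted over control, with its standard error as a bar, without a block (circles), with the replicate number as a block (squares) and with the fibroblast marker score as a covariate (diamonds). Serpinf1 has the highest value without a block, 2.14. Among the factors that lie below 0 only with the covariate are Il6 (−2.14), Igfbp3 (−0.90), Igfbp5 (−0.56) and Serpine2 (−0.05).

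Bmi1-deleted library 1 carried the highest levels of most factors. Of the 26 tested factors, 18 (69.2%) had their highest level in Bmi1-deleted library 1 and 22 in Bmi1-deleted library 1 or 2, whereas 13.5% of all tested genes had their highest level in Bmi1-deleted library 1. That library also held the highest summed level of fibroblast markers (18596 CPM), of macrophage and dendritic cell markers (178 CPM, against 112 to 132 CPM in the other Bmi1-deleted and 59.0 to 117 CPM in control libraries) and of mural cell markers (212 CPM, against 65.0 to 107 CPM in the other Bmi1-deleted and 50.2 to 84.4 CPM in control libraries). Members of the last 2 lists differed in this. Cd74 was at 62.3 CPM in that library, but Cd68 was at 9.60 CPM, against 24.9 and 30.5 CPM in Bmi1-deleted libraries 3 and 4. Myh11 was at 123 CPM in Bmi1-deleted library 1, whereas Rgs5 (10.2 CPM) and Pdgfrb (13.2 CPM) were highest in Bmi1-deleted library 2. Summed keratinocyte markers, too, were highest in Bmi1-deleted library 1, at 3126 CPM. They were at 1578 to 2793 CPM in the other Bmi1-deleted and 2067 to 2438 CPM in control libraries. The sums of endothelial, T cell, and neutrophil and mast cell markers were also highest in Bmi1-deleted library 1. Among T cell markers Thy1, which is in the fibroblast list as well, was at 8.27 CPM there. Cd3d was highest in control library 1 (9.14 CPM) and Lck in control library 3 (7.81 CPM). Schwann cell, adipocyte and melanocyte markers were highest in other libraries. The part of these cells in the levels of the factors was not tested, and the fibroblast covariate cannot fully separate it from genotype. For the 12 factors with a mean of at least 10 CPM the median coefficient of variation between libraries was 30.8% in Bmi1-deleted and 27.8% in control libraries. The same medians over the 9190 genes of at least 10 CPM were 16.2% and 17.5%. Without Bmi1-deleted library 1 the median log2 change of the tested factors was 0.22, against 0.50 with all libraries, and 0 factors were called.

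**Figure D2:**
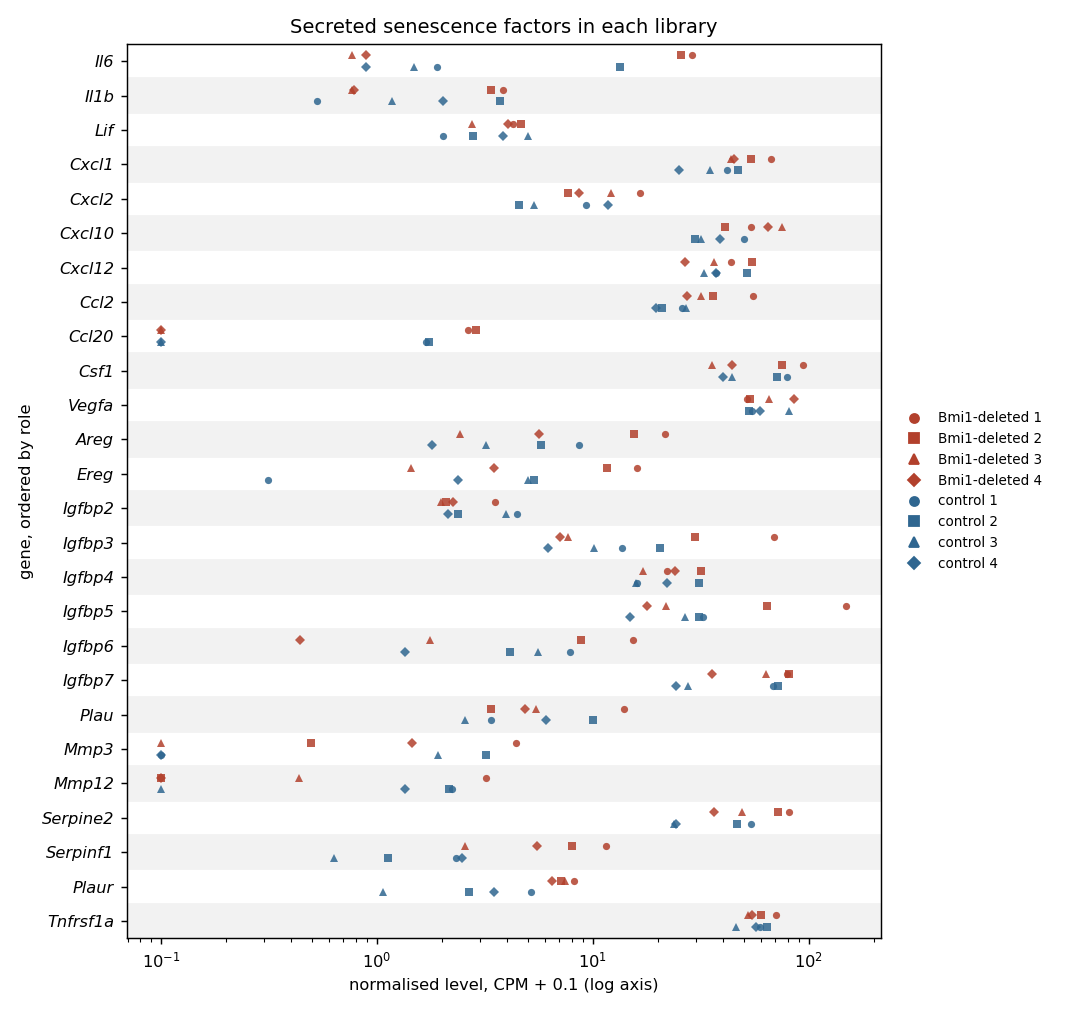
Level of each of the 26 tested factors in every library, as CPM plus 0.1 on a log axis, with Bmi1-deleted libraries drawn above control libraries in each row and 1 marker shape for each replicate number. Bmi1-deleted libraries 1 and 2 lie to the right of libraries 3 and 4 for Il6, Areg, Ereg, Igfbp3, Igfbp5 and Igfbp6, and the groups overlap for all but Ccl2, Serpinf1 and Plaur.

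The 2 serpins were the factors that passed with the replicate block, a pairing by number that no label states. Serpinf1 (ENSMUSG00000000753, mm10 chromosome 11, 75409769 to 75422701) encodes pigment epithelium-derived factor, a secreted serpin that restrains blood vessel growth. Its level was 11.5, 7.95, 2.45 and 5.44 CPM in Bmi1-deleted libraries 1 to 4, against 2.23, 1.03, 0.535 and 2.38 CPM in control libraries 1 to 4. The groups were apart by a narrow margin, between Bmi1-deleted 3 and control 4. Serpinf1 averaged 6.83 ± 3.83 CPM in Bmi1-deleted and 1.54 ± 0.903 CPM in control libraries (SD, n = 4 each), a log2 change of 2.14 (SE 0.60) that did not pass without the block (edgeR adjusted p = 0.293) and rose with it (adjusted p = 0.0445). In 4 blocked fits that each lacked 1 pair, a check added after the data were seen, it did not pass, with adjusted p from 0.0732 to 0.311. In TPM control library 1 stood at 15.9, above Bmi1-deleted libraries 2, 3 and 4 at 14.6, 9.25 and 13.7 TPM. Serpine2 (ENSMUSG00000026249, chromosome 1, 79794197 to 79861180), or protease nexin 1, inhibits thrombin and plasminogen activators outside cells. Serpine2 stood at 81.3, 71.9, 49.0 and 36.3 CPM in Bmi1-deleted libraries 1 to 4, against 54.2, 46.2, 23.6 and 24.2 CPM in control libraries 1 to 4. Each Bmi1-deleted library was above the control of the same number, although the groups overlapped. The mean was 59.6 ± 20.6 CPM in Bmi1-deleted and 37.1 ± 15.5 CPM in control libraries (SD, n = 4 each). The log2 change of 0.69 (SE 0.33) did not pass without the block (adjusted p = 0.639) and passed with it (0.71, SE 0.15, adjusted p = 0.0141). With the block it also passed without pair 1 (adjusted p = 0.0499) or pair 4 (0.0443) but not without pair 2 (0.115) or pair 3 (0.107). Under the fibroblast covariate the log2 change of Serpine2 was −0.05 (adjusted p = 0.961), and that of Serpinf1 was 1.52 (adjusted p = 0.480).

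Chemokines of the CC family draw monocytes and other leukocytes. Ccl2 (ENSMUSG00000035385, chromosome 11, 82035571 to 82037453), the main attractant of monocytes, was at 55.4, 36.1, 31.5 and 27.1 CPM in Bmi1-deleted libraries 1 to 4, against 25.8, 20.9, 26.9 and 19.6 CPM in control libraries 1 to 4. All Bmi1-deleted libraries were above all controls, the closest being Bmi1-deleted 4 and control 3. The mean was 37.5 ± 12.47 CPM in Bmi1-deleted and 23.3 ± 3.59 CPM in control libraries (SD, n = 4 each; log2 change 0.69, SE 0.23, edgeR adjusted p = 0.405, 0.0952 with the block). The exact two-sided permutation p for Ccl2, as for Serpinf1 and Plaur, was 0.0286, the smallest that the 70 assignments of 8 libraries allow. With the fibroblast score as a covariate Ccl2 had a log2 change of 0.25. The gene lies inside the span of the predicted gene Gm17268 on the opposite strand. The spans of Il1a, Il1b, Csf2, Ereg, Igfbp7 and Mmp12 also overlap genes of the opposite strand. Hgf overlaps Gm42975 and Gm43489, which lie on its own strand. Spans and not exons were compared, so whether such pairs share transcript sequence was not tested. Reads of a shared sequence could be told apart only by strand, which would not serve for Hgf. Other chemokine genes near Ccl2 on chromosome 11 had few counts. Ccl11, an attractant of eosinophils outside the 34 genes, had 61, 59, 4 and 0 counts in Bmi1-deleted libraries 1 to 4, against 7, 4, 6 and 0 in control libraries 1 to 4. Ccl7, another monocyte attractant, had 30 and 12 counts in Bmi1-deleted libraries 1 and 2 and 0 in 3 and 4, against 0, 5, 2 and 0 in control libraries 1 to 4. Ccl8 had 0 counts in all 8 libraries, where 3 counts per library, the limit that a count of 0 allows, correspond to 0.298 to 0.340 CPM. Intervals and floors of this kind cover counting error only. Ccl20, which attracts cells through Ccr6, had 23 and 28 counts in Bmi1-deleted libraries 1 and 2 and 0 in 3 and 4, against 15 and 16 in control libraries 1 and 2 and 0 in 3 and 4. Its counts thus came from replicates 1 and 2 of each genotype (log2 change 0.70, SE 1.49, adjusted p = 0.960).

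CXC chemokines recruit neutrophils and lymphocytes. Cxcl10 (chromosome 5, 92346638 to 92348889), an interferon-induced attractant of T cells, was at 53.9, 41.0, 75.5 and 64.6 CPM in Bmi1-deleted libraries 1 to 4, against 49.9, 29.8, 31.7 and 38.6 CPM in control libraries 1 to 4. Bmi1-deleted libraries 3 and 4 were the highest, unlike for most other factors, and library 2 was below control 1. Cxcl10 averaged 58.8 ± 14.7 CPM in Bmi1-deleted and 37.5 ± 9.13 CPM in control libraries (SD, n = 4 each; log2 change 0.65, SE 0.21, edgeR adjusted p = 0.399, 0.0715 with the block). With the fibroblast score as a covariate the log2 change was 0.77 (adjusted p = 0.297). Cxcl10 lies inside Art3, a gene of the opposite strand. Cxcl1 (chromosome 5, 90891241 to 90893115), a neutrophil attractant, was at 67.1, 54.2, 43.4 and 45.0 CPM in Bmi1-deleted libraries 1 to 4, against 41.6, 46.8, 34.8 and 25.1 CPM in control libraries 1 to 4. Control 2 lay above Bmi1-deleted 3 and 4, so the groups overlapped (log2 change 0.50, SE 0.21, adjusted p = 0.544). Its neighbour Cxcl2 averaged 11.1 ± 4.03 CPM in Bmi1-deleted and 7.64 ± 3.40 CPM in control libraries (log2 change 0.54, SE 0.38, n = 4 each, edgeR adjusted p = 0.804). Cxcl12, a ligand of Cxcr4 that guides migrating cells, was at 43.8, 54.4, 36.4 and 26.5 CPM in Bmi1-deleted libraries 1 to 4, against 37.3, 51.5, 32.6 and 37.2 CPM in control libraries 1 to 4. Its groups were interleaved (log2 change 0.02, SE 0.22, adjusted p = 0.991). Cxcl5, a neutrophil attractant near Cxcl1 on chromosome 5, had 2 and 1 counts in Bmi1-deleted libraries 1 and 2 and 0 in the other 6 libraries.

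Interleukins, which stand at the head of the secretory programme, differed in how evenly the libraries held them. Il6, a cytokine of the acute phase response and a defining factor of the senescent secretion, had 260, 257, 6 and 7 counts in Bmi1-deleted libraries 1 to 4, against 17, 129, 13 and 7 in control libraries 1 to 4. These are 28.7, 25.5, 0.667 and 0.794 CPM in the Bmi1-deleted and 1.81, 13.3, 1.39 and 0.792 CPM in the control libraries. High levels were thus seen in 3 libraries, Bmi1-deleted 1 and 2 and control 2, and Bmi1-deleted 3 and 4 were as low as the lowest control (log2 change 1.68, SE 1.44, edgeR adjusted p = 0.863, 0.686 with the block). Without Bmi1-deleted library 1 the log2 change of Il6 was 1.06, without control library 2 it was 3.39, and with the fibroblast score as a covariate it was −2.14 (adjusted p = 0.635). Il1b, which starts the programme together with Il1a, averaged 2.09 ± 1.65 CPM in Bmi1-deleted and 1.76 ± 1.38 CPM in control libraries (adjusted p = 0.977), and its highest libraries were again Bmi1-deleted 1 and 2 and control 2, at 3.75, 3.28 and 3.60 CPM. Lif, a cytokine of the Il6 family, did not show this order of libraries and was at 2.67 to 4.57 CPM in Bmi1-deleted and 1.91 to 4.92 CPM in control libraries (adjusted p = 0.961). Il1a and Tnf, which were not tested, had at most 6 counts in a Bmi1-deleted library, against at most 17 and 41 in a control library.

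Growth factors of the set act on blood vessels, macrophages and epithelium. Vegfa, the main growth factor of blood vessels, was at 51.6, 53.7, 65.2 and 85.2 CPM in Bmi1-deleted libraries 1 to 4, against 54.4, 52.9, 80.6 and 59.3 CPM in control libraries 1 to 4 (log2 change 0.05, SE 0.19, edgeR adjusted p = 0.982). The groups overlapped throughout, and Bmi1-deleted library 1 was the lowest of all. Csf1, the growth factor of macrophages, was at 94.0, 75.0, 35.6 and 44.1 CPM in Bmi1-deleted libraries 1 to 4, against 79.7, 71.3, 43.9 and 40.2 CPM in control libraries 1 to 4 (log2 change 0.08, SE 0.34, adjusted p = 0.982). Here replicates 1 and 2 of each genotype were high and replicates 3 and 4 low. Areg and Ereg, ligands of the epidermal growth factor receptor, lie near each other on chromosome 5. Areg had 194, 155, 21 and 49 counts in Bmi1-deleted libraries 1 to 4, against 80, 55, 29 and 15 in control libraries 1 to 4 (log2 change 1.23, SE 0.67, adjusted p = 0.701). Ereg had 145, 116, 12 and 30 counts in Bmi1-deleted libraries 1 to 4, against 2, 51, 46 and 20 in control libraries 1 to 4 (1.35, SE 0.88, adjusted p = 0.782). For this pair of ligands the Bmi1-deleted libraries 1 and 2 were above all others, and libraries 3 and 4 were within the range of the controls. With the fibroblast score as a covariate Areg had a log2 change of −0.07. Hgf, the ligand of the receptor Met, had 18, 0, 0 and 4 counts in Bmi1-deleted libraries 1 to 4, against 20, 15, 10 and 0 in control libraries 1 to 4, and Csf2 had 0 counts outside control library 1, where it had 6.

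IGF binding proteins hold insulin-like growth factors outside cells and limit or prolong their action. All 6 were tested, 0 passed, and 5 of 6 had a log2 change above 0 (median 0.46). Igfbp7 (chromosome 5, 77349240 to 77408041), whose secretion by melanocytes carrying an oncogene has been linked to senescence, was the most abundant factor per length, at 79.0, 80.8, 63.1 and 35.7 CPM in Bmi1-deleted libraries 1 to 4, against 68.1, 72.2, 27.6 and 24.2 CPM in control libraries 1 to 4. Every Bmi1-deleted library exceeded the control of its number, yet the spread between numbers was larger than that difference (log2 change 0.43, SE 0.42, edgeR adjusted p = 0.885, 0.146 with the block). Igfbp5 was at 149, 63.9, 21.8 and 17.7 CPM in Bmi1-deleted libraries 1 to 4, against 32.3, 30.9, 26.5 and 14.8 CPM in control libraries 1 to 4. Bmi1-deleted libraries 1 and 2 were above every control, and libraries 3 and 4 were among them (log2 change 1.27, SE 0.72, adjusted p = 0.742). Without Bmi1-deleted library 1 the log2 change of Igfbp5 was 0.40, and with the fibroblast score as a covariate it was −0.56. Igfbp3, the main carrier of IGF in blood, was at 69.2, 29.8, 7.56 and 6.92 CPM in Bmi1-deleted libraries 1 to 4, against 13.5, 20.3, 10.1 and 6.11 CPM in control libraries 1 to 4 (log2 change 1.18, SE 0.80, adjusted p = 0.806). As for Igfbp5, Bmi1-deleted libraries 1 and 2 were above every control, and the log2 change was 0.24 without Bmi1-deleted library 1. Igfbp4 was at 22.0, 31.6, 16.9 and 23.9 CPM in Bmi1-deleted libraries 1 to 4, against 15.9, 30.8, 15.8 and 22.1 CPM in control libraries 1 to 4. Its levels went with the replicate number (log2 change 0.16, SE 0.26, adjusted p = 0.940). Igfbp6 ranged from 0.340 to 15.2 CPM in Bmi1-deleted and from 1.24 to 7.76 CPM in control libraries (log2 change 0.49, SE 0.92). Igfbp2, which adjoins Igfbp5 on chromosome 1, averaged 2.36 ± 0.713 CPM in Bmi1-deleted and 3.13 ± 1.15 CPM in control libraries (log2 change −0.40, SE 0.54, n = 4 each, edgeR adjusted p = 0.920).

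**Figure D3:**
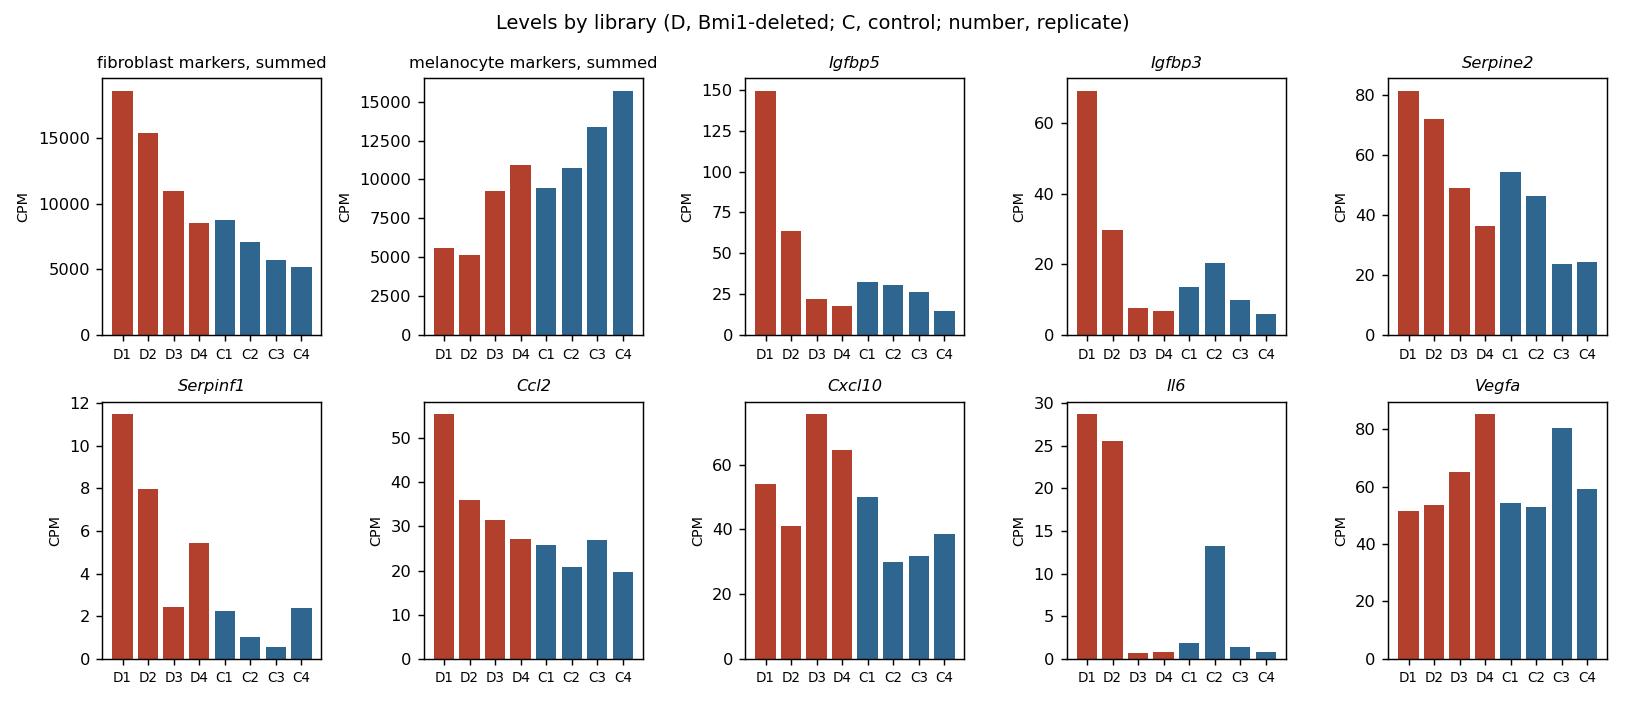
Level in CPM of 8 factors, and summed level of the fibroblast and melanocyte markers, in each library, with Bmi1-deleted libraries (D1 to D4) left of control libraries (C1 to C4). Igfbp5, Igfbp3 and Il6 are highest in D1 and D2, where fibroblast markers are also highest (18596 and 15382 CPM) and melanocyte markers lowest (5581 and 5147 CPM), whereas Cxcl10 is highest in D3 and Vegfa in D4.

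Proteases of the secretion break down matrix. Plau, the urokinase plasminogen activator, was at 13.8, 3.28, 5.34 and 4.76 CPM in Bmi1-deleted libraries 1 to 4, against 3.29, 9.89, 2.46 and 5.996 CPM in control libraries 1 to 4 (log2 change 0.33, SE 0.54, edgeR adjusted p = 0.940). Each group thus had 1 high library, and the groups overlapped. The metalloproteinase genes Mmp3, Mmp12 and Mmp13 lie together on chromosome 9 and were near their detection limit. Mmp3 had at most 39 counts in a Bmi1-deleted and 30 in a control library (adjusted p = 0.985), Mmp12 at most 28 and 20 (adjusted p = 0.958), and Mmp13, which was not tested, 17 and 4. Mmp2, a matrix metalloproteinase outside the 34 genes, rose over the same libraries, with 111, 103, 110 and 86.4 CPM in Bmi1-deleted libraries 1 to 4, against 46.5, 35.3, 49.2 and 47.0 CPM in control libraries 1 to 4 (log2 change 1.21, SE 0.14, adjusted p = 0.00319).

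Of the surface receptors, Plaur (ENSMUSG00000046223, chromosome 7, 24462484 to 24475968) binds urokinase and marks many senescent cells. Plaur was at 8.05, 7.05, 7.34 and 6.35 CPM in Bmi1-deleted libraries 1 to 4, against 5.10, 2.57, 0.963 and 3.39 CPM in control libraries 1 to 4. The Bmi1-deleted libraries were close together and all above the controls, which spread more widely. Plaur averaged 7.20 ± 0.705 CPM in Bmi1-deleted and 3.01 ± 1.72 CPM in control libraries (SD, n = 4 each). Its log2 change was 1.26 (SE 0.48, edgeR adjusted p = 0.495, 0.191 with the block), and it was 0.96 under the fibroblast covariate. Tnfrsf1a, the main receptor of tumour necrosis factor, was at 70.6, 59.9, 52.4 and 54.4 CPM in Bmi1-deleted libraries 1 to 4, against 59.2, 63.8, 46.0 and 57.0 CPM in control libraries 1 to 4. Its groups were interleaved, with a coefficient of variation of 13.8% in Bmi1-deleted and 13.3% in control libraries (log2 change 0.07, SE 0.15, adjusted p = 0.960).

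To order the factors by level, the deposited TPM, which divide by transcript length, were rescaled without Gm23935, a predicted gene that took 73.7% to 85.6% of each library's TPM. Igfbp7 came first, with a mean of 98.1 TPM over the 8 libraries, above 89.6% of all tested genes. Cxcl1 (79.4), Cxcl10 (77.2), Ccl2 (71.8), Vegfa (65.7), Tnfrsf1a (62.7), Serpine2 (58.4) and Csf1 (46.7 TPM) followed. In the middle stood Il6 at 14.1 TPM, Plaur at 13.96 TPM, Igfbp5 at 12.4 TPM and Serpinf1 at 10.9 TPM, and Mmp12, Il1a, Csf2, Mmp13, Cxcl5 and Ccl8 were under 0.5 TPM. Each factor overlapped with the next one in its range over libraries. Igfbp4 was above its next neighbour Cxcl12 in 8 of 8 libraries, and no other factor was above the next one in more than 6.

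**Figure D4:**
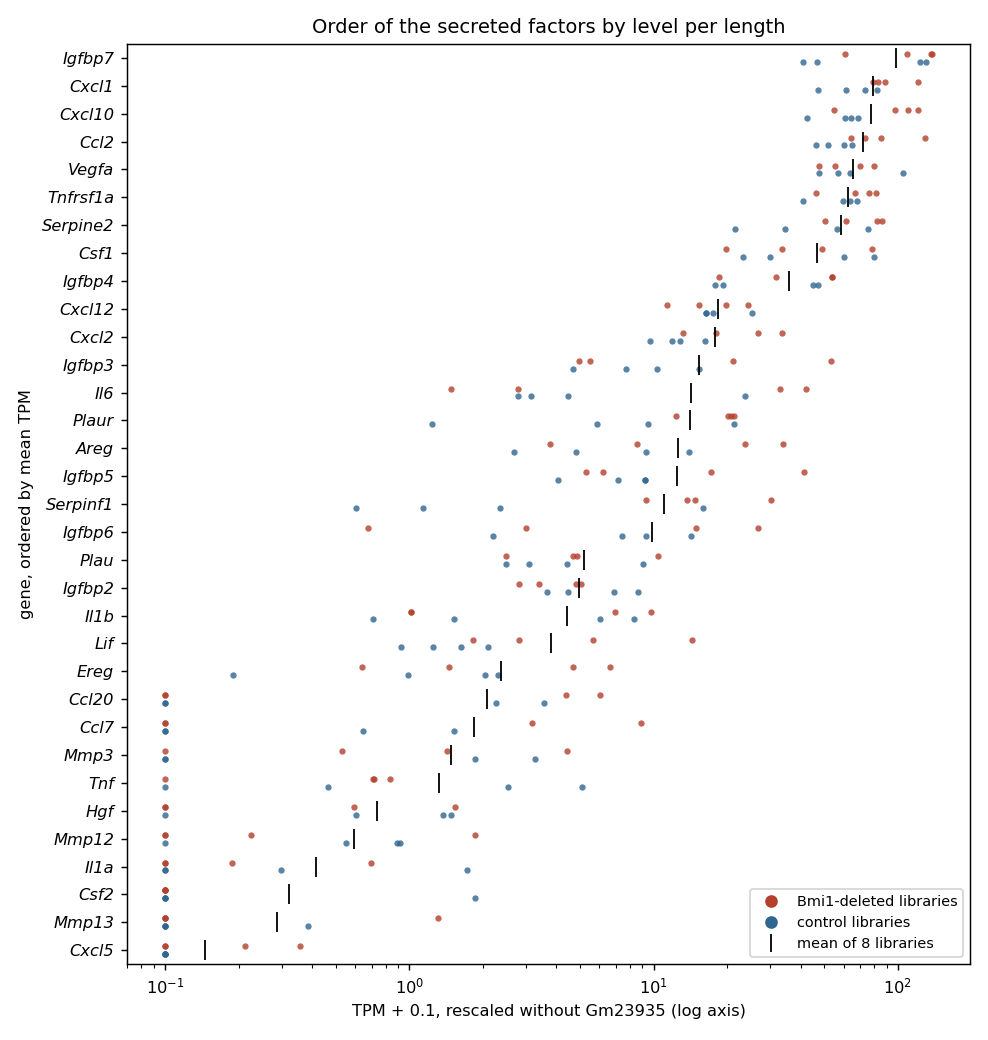
TPM plus 0.1 on a log axis for the 33 factors with a count, in order of their mean over the 8 libraries, with Bmi1-deleted libraries (red) above control libraries (blue) in each row and the mean as a black tick. Mean levels run from 98.1 TPM for Igfbp7 to 0.0462 TPM for Cxcl5, and the ranges of neighbours overlap.

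Genes that act on the same programme were described from lists of other secreted factors, regulators, receptors and senescence state genes. Among 58 other secreted factors 40 were tested, and 1 rose (Mmp2) and 0 fell, against 0.0874% and 0.00625% of all tested genes. Their median log2 change was 0.17. Gdf15, a stress-induced cytokine, averaged 3.62 ± 1.014 CPM in Bmi1-deleted and 0.927 ± 0.817 CPM in control libraries, with groups apart (log2 change 1.95, SE 0.74, n = 4 each, edgeR adjusted p = 0.493). Its counts were low, at 37, 23, 31 and 41 in Bmi1-deleted libraries 1 to 4 and 2, 10, 4 and 18 in control libraries 1 to 4. Mmp14 was apart by a small change, at 278 ± 5.45 CPM in Bmi1-deleted and 249 ± 15.4 CPM in control libraries (0.16, SE 0.10, adjusted p = 0.772). Bmp2, a bone morphogenetic protein, averaged 8.93 ± 2.93 CPM in Bmi1-deleted and 15.5 ± 2.60 CPM in control libraries, also apart (−0.79, SE 0.29, adjusted p = 0.474). Of 46 tested regulators 0 rose and 0 fell, with 2 higher and 4 lower at an unadjusted p under 0.05, against 4.82% and 3.45% of all tested genes, and a median of 0.04. The genes of the main transcription factors did not pass, with Nfkb1 at 155 ± 26.8 CPM in Bmi1-deleted and 136 ± 17.0 CPM in control libraries, Rela at 153 ± 22.9 CPM in Bmi1-deleted and 125 ± 22.6 CPM in control libraries, and Cebpb at 88.8 ± 15.8 CPM in Bmi1-deleted and 69.1 ± 4.42 CPM in control libraries (n = 4 each, edgeR adjusted p = 0.809, 0.661 and 0.516). Ikbkb, a kinase that activates NF-kappaB, averaged 96.0 ± 22.3 CPM in Bmi1-deleted and 135 ± 10.7 CPM in control libraries, with groups apart. It passed with the block but not without it (log2 change −0.50, adjusted p = 0.379 without the block and 0.0300 with it). Jak2, a kinase of cytokine receptors, averaged 129 ± 10.3 CPM in Bmi1-deleted and 170.0 ± 14.1 CPM in control libraries, also apart (−0.39, SE 0.11, adjusted p = 0.304). Groups were apart for 2 regulators that were higher and 4 that were lower, against 2.79% and 2.39% of all tested genes. Nfkb2 was higher, at 158 ± 3.35 CPM in Bmi1-deleted and 134 ± 13.2 CPM in control libraries (log2 change 0.24, edgeR adjusted p = 0.606). Notch1 was higher too, at 713 ± 25.5 CPM in Bmi1-deleted and 626 ± 66.9 CPM in control libraries (0.19, adjusted p = 0.750).

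Receptors for the factors did not pass without the block. Of 25 tested, 0 rose and 0 fell, with 4 higher and 1 lower at an unadjusted p under 0.05 (median 0.28), against 4.82% and 3.45% of all tested genes. With the block 2 rose and 1 fell, against 1.71% and 0.706% of all tested genes. Met, the receptor of Hgf, was at 88.1, 86.7, 90.9 and 85.4 CPM in Bmi1-deleted libraries 1 to 4, against 136, 153, 132 and 98.4 CPM in control libraries 1 to 4 (log2 change −0.57, SE 0.14, edgeR adjusted p = 0.166, 0.0204 with the block). All Bmi1-deleted libraries were below all controls. Lrp1, an uptake receptor that clears complexes of proteases with serpins, among them Serpine2, was at 407, 460, 367 and 318 CPM in Bmi1-deleted libraries 1 to 4, against 310, 227, 255 and 207 CPM in control libraries 1 to 4. Its groups were apart too, in the other direction (log2 change 0.64, SE 0.15, adjusted p = 0.153, 0.00410 with the block). Itgb3, a subunit of the vitronectin receptor integrin, averaged 183 ± 37.2 CPM in Bmi1-deleted and 127 ± 34.1 CPM in control libraries (edgeR adjusted p = 0.511, 0.0103 with the block). Cxcr2, Ccr2 and Ccr6, the receptors of several chemokines of the set, were below the count filter.

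Among the 13 senescence state genes 2 rose, Cdkn2a and Tbx3, and 0 fell, against 0.0874% and 0.00625% of all tested genes. Log2 changes were above 0 for 7 of the 13 and below 0 for 6 (median 0.03). Groups were apart and higher for 3 and apart and lower for 1, against 2.79% and 2.39% of all tested genes. Cdkn1a, which encodes the cell cycle inhibitor p21, was at 155, 182, 155 and 189 CPM in Bmi1-deleted libraries 1 to 4, against 125, 112, 130 and 114 CPM in control libraries 1 to 4. Its groups were apart, and it passed with the block but not without it (log2 change 0.50, SE 0.12, edgeR adjusted p = 0.144, 0.0268 with the block). Lmnb1, a nuclear lamin gene whose transcript is often lost in senescent cells, averaged 54.5 ± 15.0 CPM in Bmi1-deleted and 60.7 ± 5.94 CPM in control libraries (n = 4 each, edgeR adjusted p = 0.910).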

How the data were processed

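Per the submitters' processing notes, the authors used Salmon 1.2.1 and build mm10. They deposited estimated counts per gene as whole numbers without normalisation, and a second table of log2 values, which are log2 of TPM plus 1 because undoing them gives columns of equal sums, as TPM have. For annotation release, strand setting and rounding, no statement was found (not given in the sources used here). Per the labels' protocols, libraries were made with a stranded total RNA kit from 1 ng of RNA with 2 rounds of 15 PCR cycles, so counts include PCR copies. Identifiers were named from GENCODE mouse release M21 (54166 of 54418 matched).

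Counts were filtered by group with filterByExpr of edgeR 4.0.16 (R 4.3.3), which left 16011 genes. Libraries were scaled by TMM, and groups were compared by the two-sided quasi-likelihood F test (robust), with Benjamini-Hochberg adjustment over all tested genes and a threshold of 0.05. Levels are CPM of the counts in tested genes with TMM scaling, and errors of log2 changes come from the F statistic. The fits were tested on simulated data. Same-numbered libraries of the 2 genotypes deviated together (correlations over genes of 0.124, 0.186, 0.147 and 0.180, all above 0.1), so the number was taken as pairing them, although libraries 1 and 2, and 3 and 4, also correlated across numbers (Bmi1-deleted 1 with control 2 0.217, 2 with 1 0.148, 3 with 4 0.129, 4 with 3 0.171) and no label names a shared litter or day. The blocked value is given where it matters to a call. Alternatives were DESeq2 1.42.0, limma 3.58.1 on log2 TPM with pseudocounts of 1 and 0.1, other scaling and filters, a fibroblast covariate (17 tested markers) and each library left out. Factors were named by role; all are accounted for, and those that passed, had groups apart or were among the 12 most abundant are given by library. Il6, Areg, Ereg, Plau, Hgf and Ccl20 are given so after their values were seen. The factors and lists were chosen with earlier results of these data known, and no set test was run.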

Additional observations from a re-analysis of the deposited data

Results flagged for a closer look

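In 52 groups of 4 libraries, 1 for each tested factor and genotype, the gap between an extreme library and its nearest neighbour was divided by the range of the group, and groups above Dixon's critical value for 4 samples are given. Chance marks about 1 in 20 groups. In control libraries Il6 stood out, because control library 2 was at 13.3 CPM while the other controls were at 0.792 to 1.81 CPM (ratio 0.919). In Bmi1-deleted libraries Mmp12 stood out, because library 1 was at 3.09 CPM while the others were at 0 to 0.334 CPM (ratio 0.892).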

How the results depend on the processing

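Fitted changes near 0 carried no stable sign. With the fibroblast covariate some of the larger changes fell below 0 too, among them those of Il6, Igfbp3 and Igfbp5. Calls among the factors came from some settings only. The cause of these shifts was not tested. Counts of genes that rose or fell are given at an adjusted p under 0.05. With DESeq2 size factors in edgeR, 3 genes fell in all. Without the filter on low counts, 259 genes rose and 121 fell, among them 3 factors that rose, and 3 receptors rose and 1 fell. With DESeq2, 113 genes rose and 48 fell, among them 1 factor that rose, and 1 receptor rose and 1 fell, while 3 factors had no adjusted p. With a filter of at least 1 CPM in 4 libraries the counts of factors stayed at 0.

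With the replicate number as a block, 273 genes rose and 113 fell, 2 factors rose, 1 regulator fell, and 2 receptors rose and 1 fell. In that paired fit the log2 change was −0.0014 for Cxcl12 and −0.15 for Igfbp6. It changed no other call among the factors.

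With the fibroblast covariate, 2 genes fell in all and the median of the tested factors was −0.24. Log2 changes below 0 were then found for Il6 (−2.14), Il1b (−1.28), Cxcl12 (−0.44), Ccl20 (−5.79), Csf1 (−0.61), Areg (−0.066), Igfbp3 (−0.90), Igfbp5 (−0.56), Igfbp6 (−2.74), Igfbp7 (−0.35), Plau (−0.40), Mmp3 (−0.61), Serpine2 (−0.048) and Tnfrsf1a (−0.14).

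The limma fits on TPM placed the median of all genes at −0.14 with a pseudocount of 1 and −0.21 with 0.1. With a pseudocount of 1, 3 genes rose in all, 0 other secreted factors and 1 senescence state gene, and changes below 0 were found for Il1b (−0.027), Cxcl12 (−0.26), Csf1 (−0.29), Vegfa (−0.27), Igfbp6 (−0.064), Plau (−0.019), Mmp3 (−0.026) and Tnfrsf1a (−0.012). With a pseudocount of 0.1, 2 genes rose in all, 0 other secreted factors and 1 senescence state gene, and changes below 0 were found for Il1b (−0.080), Cxcl12 (−0.33), Csf1 (−0.32), Vegfa (−0.29), Igfbp6 (−0.40) and Tnfrsf1a (−0.0079).

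Leaving out 1 library or, in the blocked fit, 1 pair gave 8 to 264 genes that rose and 0 to 87 that fell, 0 to 2 factors that rose and 1 to 2 senescence state genes that rose. The fits without 1 pair were added after the data were seen. Without a block no single library left out gave a called factor, and leaving out control library 1 gave 40 genes that rose and 5 that fell. The log2 changes ran from −0.18 to 0.88 for Il1b, −0.16 to 0.18 for Cxcl12, −0.19 to 0.27 for Csf1, −0.13 to 0.20 for Vegfa, −0.022 to 0.40 for Igfbp4, −0.36 to 0.88 for Igfbp6, −0.28 to 0.79 for Plau, −1.06 to 1.31 for Mmp3 and −0.024 to 0.14 for Tnfrsf1a. A count of 0 allows up to 3 counts, or 0.298 to 0.340 CPM, in a library.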
